A study of Mus musculus with 6 samples.

Results

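The melanocyte lineage transcription factors described here are 10 genes chosen by name: Mitf, Sox10, Pax3, Tfap2a, Lef1, Tfeb, Tfe3, Tfec, Sox5 and Irf4. Of these, 8 were found among the 15726 genes of the deposited table, and the expression of Lef1 and Tfec was not analysed here. They were measured by poly(A) RNA sequencing in B16F10, an established mouse melanoma line that makes pigment, in 3 libraries from cells given rPPAA18C6@Dox and 3 libraries from cells given PBS. The rPPAA18C6@Dox columns carry another letter than the sample titles and were assigned by elimination, so directions depend on that assignment. The dose of rPPAA18C6@Dox was 50 μg/mL, and cells of both groups were collected after 8 h. The labels give the preparation by this code only, and the series title speaks of a nanoplatform with a potassium ionophore that responds to reactive oxygen species. No cells given the carrier alone or the drug alone were analysed here, so the parts of the preparation cannot be told apart. Nothing in the labels says that the 3 libraries of a group are from separate cultures. The p-values therefore set group differences against the spread among these libraries, and that spread may be technical.

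Pigment cells descend from the neural crest, where PAX3, SOX10 and TFAP2A are expressed and where SOX10 and PAX3 together switch on Mitf. MITF, a basic helix-loop-helix leucine zipper protein, then binds E-box motifs in the promoters of pigment genes and holds the melanocyte state. Its relatives TFEB, TFE3 and TFEC, which with it form the MiT/TFE family, bind similar motifs. TFEB and TFE3 are best known as activators of lysosome and autophagy genes. LEF1 brings beta-catenin to Wnt-responsive promoters, Mitf among them. SOX5 counteracts SOX10 in mouse melanocytes, and IRF4 acts with MITF on the tyrosinase gene.

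Mitf has several promoters, and the one nearest the shared exons is known as the melanocyte promoter. Its sequence is shown because it holds letters of motifs through which cAMP signalling and the Wnt pathway are known to reach Mitf. The RefSeq window of GRCm38.p6 for this start, chr6:97991533-97991832 on the plus strand, covers 250 bases before the start and 50 from it. Capitals mark the letters CTTTGAT, a LEF1/TCF motif that begins 205 bases before the start, and TGACGTCA, a cAMP response element that begins 153 bases before it.
Mitf melanocyte start: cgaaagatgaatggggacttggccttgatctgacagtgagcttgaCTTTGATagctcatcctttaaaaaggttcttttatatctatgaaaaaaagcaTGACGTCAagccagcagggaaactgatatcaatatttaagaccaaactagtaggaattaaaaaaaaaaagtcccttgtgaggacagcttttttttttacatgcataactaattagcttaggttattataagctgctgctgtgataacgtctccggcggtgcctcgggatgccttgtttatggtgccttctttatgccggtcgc

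Searched on both strands, CTTTGAT is in 3.73% and TGACGTCA in 1.79% of the 32851 promoter windows of the same length. The windows of the other Mitf starts hold neither. The letters of a SOX motif, ACAAAG, were searched as well and are in 18.7% of windows, but in no Mitf window. The deposited values are per gene, so they do not say which Mitf start was used. The RefSeq table matched 8 of the members, with 17 windows in all, and Sox10 and Pax3 were not among them. A palindromic E-box (CACGTG, in 7.15% of windows) was found at 1 start of Lef1 and in no other window of a member.

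Mitf rose in cells given rPPAA18C6@Dox, and it was the 1 tested member that passed the threshold. Values were read as FPKM, reads scaled by gene length and library depth. The deposited table holds no gene lengths, so comparisons of level between genes depend on lengths that were not checked against an annotation here. The level of Mitf was 56.9, 56.7 and 55.7 FPKM in the rPPAA18C6@Dox libraries, against 44.9, 46.7 and 45.0 FPKM in the PBS libraries. The groups were far apart relative to the spread within either of them, with no overlap. The mean was 56.4 ± 0.623 FPKM with rPPAA18C6@Dox and 45.5 ± 0.977 FPKM with PBS (SD, n = 3 each), a level 23.9% higher. In limma, on log2(FPKM + 1) with Benjamini-Hochberg adjustment over 10680 tested genes, the log2 fold change was 0.30 (SE 0.0261, adjusted p = 8.86e-05). Each library held 17681 to 22498 reads of Mitf, as recovered from the steps of the FPKM values. The call held with any 1 library left out, with adjusted p of 0.000371 to 0.000896.

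Tests covered genes with a mean of at least 1 FPKM in one group or the other, and 7 of the 8 members with a row met this. Of these 7, 1 was called higher and 0 lower in limma, where 9.93% of all tested genes were called, 4.66% higher and 5.26% lower. At an unadjusted p under 0.05 the limma fit had 6 of the 7 members and 26.2% of all tested genes. Voom, a fit to the recovered reads, called 3 members higher, against 6.58% of all tested genes called higher and 15.3% called in either direction. Before any fit, 4 members had every rPPAA18C6@Dox library above every PBS library, as did 12.6% of tested genes, and 1 had every one below, as did 18.7%. The estimates went both ways, with 5 positive and 2 negative and a median log2 fold change of 0.06, where all tested genes had a median of -0.013.

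**Figure D1:**
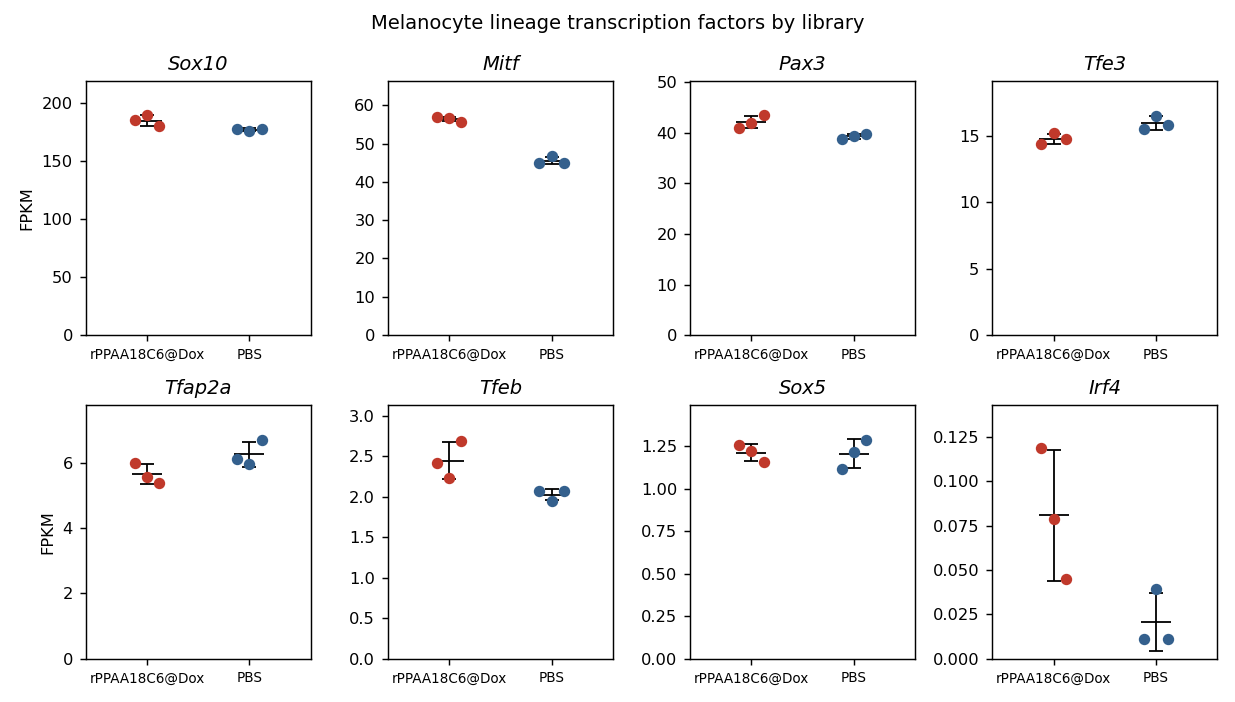
FPKM of the 8 members with a row, ordered by level, in 3 rPPAA18C6@Dox and 3 PBS libraries. Points are libraries, the dash is the mean and the bar the SD, and each vertical axis starts at 0. In the Mitf panel the rPPAA18C6@Dox mean of 56.4 FPKM stands above the PBS mean of 45.5 FPKM with no overlap.

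The order of the members by level was Sox10, Mitf, Pax3, Tfe3, Tfap2a, Tfeb, Sox5 and Irf4, in cells given rPPAA18C6@Dox and in cells given PBS alike. In neither group did the ranges of any neighbours in this order overlap. In PBS libraries Sox10 was above 98.1% of all genes of the table, Mitf above 90.5% and Pax3 above 88.9%, whereas Sox5 was above 33.9% and Irf4 above 4.86%. This order and these percentages rest on the length used for each gene, and those lengths were unlike. In PBS replicate 1, 1477 recovered reads stood for 1.12 FPKM of Sox5 and for 6.11 FPKM of Tfap2a. There, 18003 reads of Mitf stood for 44.9 FPKM and 18021 reads of Sox10 for 177.7 FPKM. Recovered reads, which are not divided by length and so grow with it, gave another order. With rPPAA18C6@Dox, Mitf had 22049 to 22498 reads per library and Sox10 18011 to 19045. With PBS, Mitf had 17681 to 18539 and Sox10 17665 to 18021. Sox5 (1477 to 1667 per library) stood above Tfeb (546 to 751), and its range overlapped that of Tfap2a (1289 to 1589).

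Sox10, the neural crest factor that activates Mitf, was the member with the highest FPKM. It was at 184.7, 189.4 and 179.7 FPKM in the rPPAA18C6@Dox libraries, against 177.7, 175.5 and 177.6 FPKM in the PBS libraries. The groups did not overlap, but the lowest rPPAA18C6@Dox library, replicate 3, was close to the PBS values. The log2 fold change of 0.06 (SE 0.0249) did not pass limma's threshold (adjusted p = 0.157), and the adjusted p was 0.0896 to 0.394 with 1 library left out.

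Pax3 encodes a paired-box factor that works with SOX10 on the Mitf promoter. Its level was 41.0, 41.9 and 43.4 FPKM with rPPAA18C6@Dox, against 38.8, 39.4 and 39.8 FPKM with PBS, again without overlap. The means differed by 7.12%, and the limma log2 fold change was 0.10 (SE 0.0288, adjusted p = 0.0625). Pax3 was past the threshold with voom (adjusted p = 0.0211) and with quantile normalization (0.0492, where 9.83% of tested genes were called), and in no fit with 1 library left out (0.0600 to 0.163).

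Tfap2a, which encodes the neural crest factor AP-2 alpha, was at 6.01, 5.57 and 5.39 FPKM with rPPAA18C6@Dox, against 6.11, 5.96 and 6.70 FPKM with PBS. The groups overlapped, since rPPAA18C6@Dox replicate 1 was above PBS replicate 2. The log2 fold change was -0.12 (SE 0.0525, adjusted p = 0.167 in limma). Exons of Tfap2a overlap those of Gm26688 on the other strand, a gene at a mean of 1.03 FPKM. Reads of the pair may be mixed if the counting ignored the strand.

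Sox5, the SOX10 antagonist, was at 1.26, 1.22 and 1.16 FPKM with rPPAA18C6@Dox, against 1.12, 1.22 and 1.28 FPKM with PBS. These ranges overlapped almost fully, and the limma log2 fold change was 0.0044 (SE 0.0604, adjusted p = 0.974). Its sign turned without rPPAA18C6@Dox replicate 1 (-0.010) or PBS replicate 1 (-0.025).

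**Figure D2:**
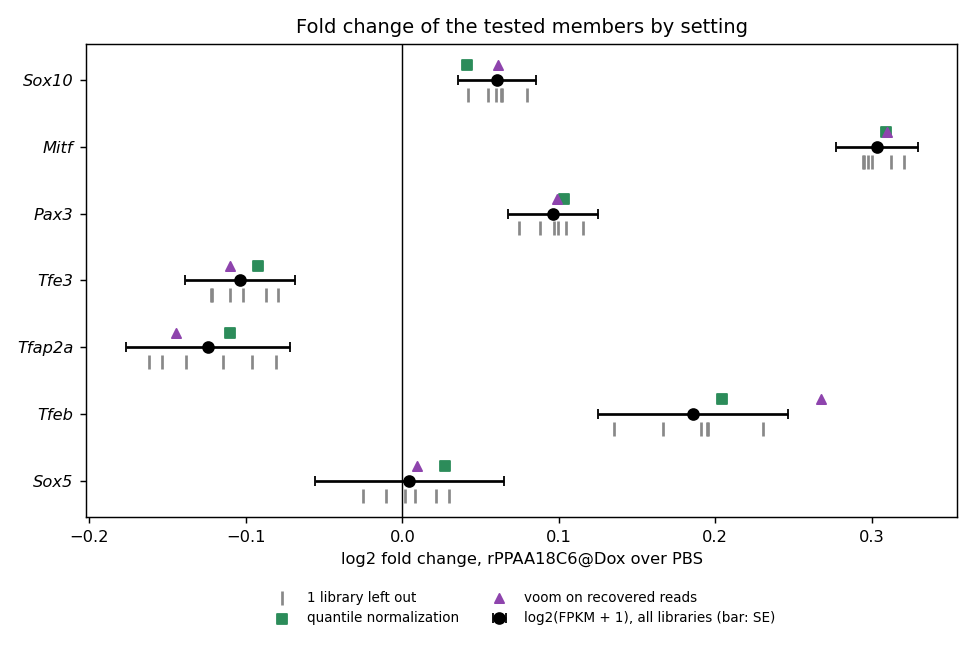
Log2 fold change of each tested member, rPPAA18C6@Dox over PBS. Black points with SE bars are the limma estimates on log2(FPKM + 1), grey ticks are fits with 1 library left out, and squares and triangles are quantile normalization and voom. Mitf lies near 0.30 in every fit, and the voom value of Tfeb (0.27) is above its estimate of 0.19.

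Irf4 was the member with the lowest level and was below the filter. It had 21, 14 and 8 reads in the rPPAA18C6@Dox libraries, against 2, 7 and 2 reads in the PBS libraries. That is 0.119, 0.0789 and 0.0452 FPKM against 0.0112, 0.0394 and 0.0114 FPKM. The lowest rPPAA18C6@Dox library was just above the highest PBS library. With all genes of the table in the fit, voom gave an adjusted p of 0.0418 (9.73% of genes called) and limma on log2(FPKM + 1) gave 0.179. The voom fit with no filter was added after the values were seen. With 43 reads in all against 11, the depth leaves this difference uncertain.

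Within the MiT/TFE family, Mitf and Tfe3 had estimates of opposite sign. Tfe3 was at 14.4, 15.2 and 14.7 FPKM with rPPAA18C6@Dox, against 15.5, 16.5 and 15.8 FPKM with PBS, each rPPAA18C6@Dox library below each PBS library. Its log2 fold change was -0.10 (SE 0.0353, adjusted p = 0.0939 in limma). Tfeb was at 2.42, 2.24 and 2.69 FPKM with rPPAA18C6@Dox, against 2.07, 1.95 and 2.07 FPKM with PBS, also without overlap. The limma log2 fold change of Tfeb was 0.19 (SE 0.0608, adjusted p = 0.0844), and voom on its 546 to 751 reads per library gave 0.27 (adjusted p = 0.0113). The limma fit on log2(FPKM + 1) understates changes at such low levels.

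The summed level of Mitf, Tfeb and Tfe3 was 73.7, 74.1 and 73.1 FPKM with rPPAA18C6@Dox, against 62.6, 65.1 and 62.8 FPKM with PBS. The means differed by 10.1 FPKM, or 15.9% (exact permutation test, two-sided, p = 0.10, the smallest that 3 against 3 libraries can give). Without Mitf the direction turned: Tfeb and Tfe3 together were at 17.2 ± 0.343 FPKM with rPPAA18C6@Dox and 18.0 ± 0.444 FPKM with PBS (SD, n = 3 each, exact p = 0.10). Mitf was 76.6% ± 0.507 of the family's sum with rPPAA18C6@Dox and 71.7% ± 0.148 with PBS, while Tfe3 was 20.1% ± 0.479 and 25.1% ± 0.266 (SD, n = 3 each). The level of Mitf was 3.82 ± 0.113 times that of Tfe3 with rPPAA18C6@Dox and 2.85 ± 0.0351 times with PBS. The sums, percentages and ratios of this paragraph also rest on the length used for each gene.

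**Figure D3:**
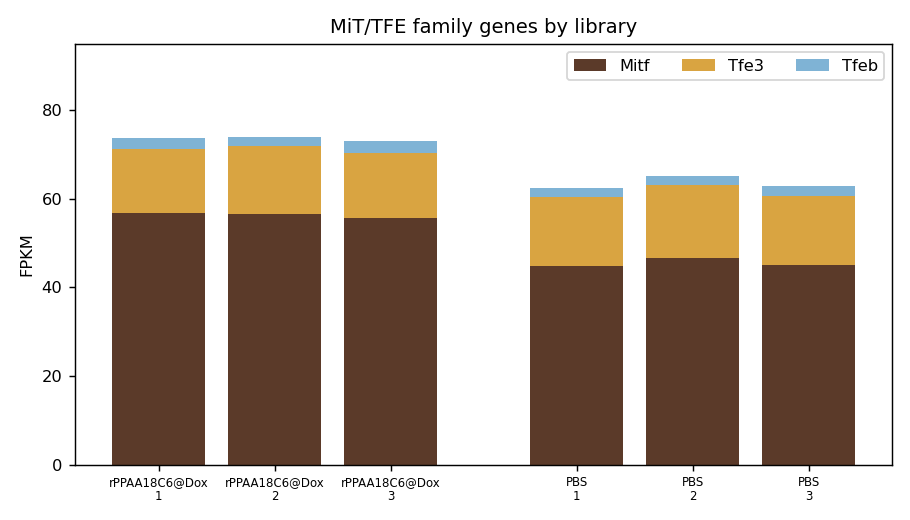
Stacked FPKM of Mitf, Tfe3 and Tfeb in each library, rPPAA18C6@Dox left and PBS right, with the axis from 0. The rPPAA18C6@Dox bars reach 73.1 to 74.1 FPKM and the PBS bars 62.6 to 65.1 FPKM, and the difference lies in the Mitf segment.

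Relative to Sox10, its activator, Mitf was also higher. The log2 ratio of Mitf to Sox10 levels was -1.70, -1.74 and -1.69 with rPPAA18C6@Dox, against -1.98, -1.91 and -1.98 with PBS, without overlap. The ratio's mean differed by 0.25 on the log2 scale (exact permutation test, two-sided, p = 0.10, the smallest possible here).

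Among 7787 tested genes with a mean of at least 5 FPKM, the 3 with the profile most like that of Mitf over the 6 libraries were L3mbtl2, Rhog and Lima1. Likeness was the root mean square difference of log2(FPKM + 1) values centred per gene, which was 0.011 for L3mbtl2 and 0.020 for both others. L3mbtl2, a Polycomb-related chromatin protein, was at 60.0 ± 0.938 FPKM with rPPAA18C6@Dox and 48.6 ± 0.551 FPKM with PBS (SD, n = 3 each). Those most like Sox10 were the ubiquitin-conjugating enzyme Ube2g2 (0.0079), the inhibitor of helix-loop-helix factors Id2 (0.0089) and the phosphatase Prune1 (0.011). These are descriptions over 6 libraries.

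Most tested targets of MITF were higher in cells given rPPAA18C6@Dox. The list of 30 well-described MITF targets had 25 tested genes, of which 17 rose and 2 fell, where 4.66% of all tested genes rose and 5.26% fell. The median log2 fold change was 0.18, against -0.013 for all tested genes. The list was compiled with earlier results of these data known, and it describes genes around Mitf without showing that MITF acted on them. With 1 library left out 16 to 17 of the list were called.

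The largest rises in the list were those of Ppargc1a, a coactivator of mitochondrial biogenesis that MITF drives in melanoma, and Met, the receptor of hepatocyte growth factor. Ppargc1a was at 9.98 ± 0.280 FPKM with rPPAA18C6@Dox and 4.56 ± 0.188 FPKM with PBS (SD, n = 3 each), and Met at 18.9 ± 0.740 and 9.55 ± 0.288 FPKM. Among genes of melanin synthesis, Tyrp1 was 22.7% higher in mean FPKM, Dct 16.4% and Tyr, the rate-limiting enzyme, 9.95%. The solute carriers of the melanosome Slc24a5 (24.0% higher) and Slc45a2 (19.6%), the receptor Gpr143 (24.2%) and the channel Trpm1 (39.8%) rose as well. Cdk2 (30.7%) overlaps exons of the melanosome matrix gene Pmel (19.8%) on the other strand, and Slc24a5 those of Myef2. Reads of each pair may be mixed if the counting ignored the strand.

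Genes of melanosome transport in the list also rose: the motor Myo5a by a log2 fold change of 0.29 (SE 0.0346), its partner Rab27a by 0.26 (SE 0.0329) and Mreg by 0.18 (SE 0.0313). The adaptor Mlph, which links RAB27A to that motor, was at 119.2 ± 3.02 FPKM with rPPAA18C6@Dox and 120.4 ± 0.638 FPKM with PBS (log2 fold change -0.015, adjusted p = 0.743 in limma). Hif1a (0.16), Gpnmb (0.12) and the melanocortin receptor Mc1r (0.12) completed the rises. The calls of Mc1r and of the fallen Mef2c (-0.24) and Tbx2 (-0.11) did not hold in every fit with 1 library left out. Their estimates kept their signs, at 0.10 to 0.13 for Mc1r, -0.26 to -0.22 for Mef2c and -0.12 to -0.093 for Tbx2. Such fits called 600 to 749 of all tested genes, against 1060 with all libraries. Leaving out replicate 1 or 2 of rPPAA18C6@Dox, or replicate 1 or 3 of PBS, took Mc1r over the threshold, with an adjusted p of at most 0.0616. The same happened to Mef2c in 5 of 6 fits, PBS replicate 1 being the exception (at most 0.0808), and to Tbx2 in all 6 (at most 0.121).

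**Figure D4:**
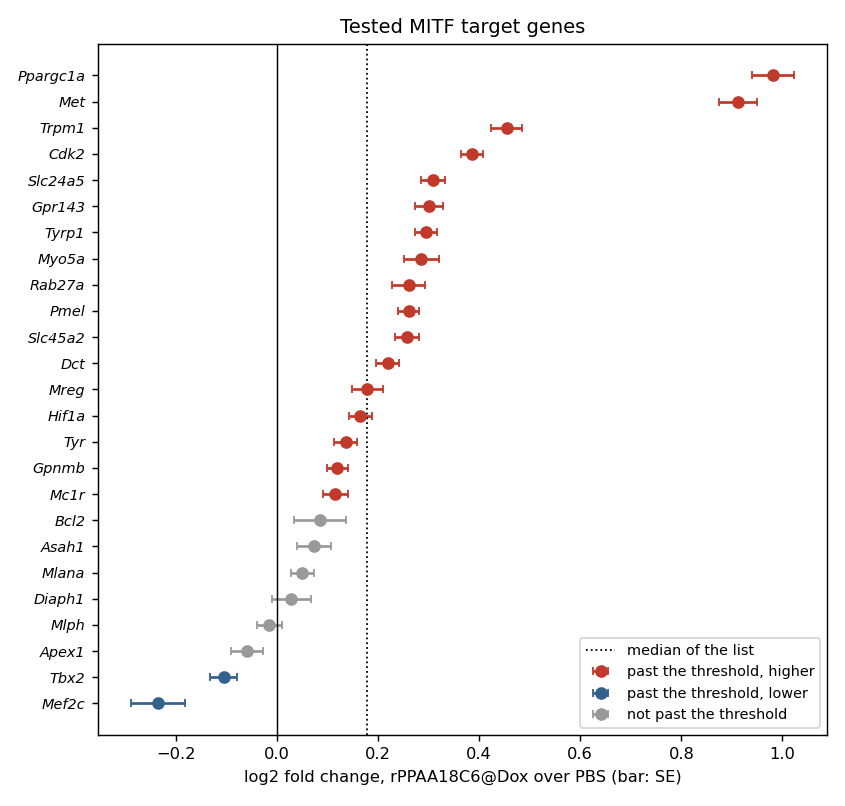
Log2 fold change with SE of the 25 tested MITF targets, rPPAA18C6@Dox over PBS. Red points rose, blue points fell and grey points did not pass the threshold, and the dotted line is the list's median of 0.18. Ppargc1a (0.98) and Met (0.91) stand apart from the others, and 17 genes are red.

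The M-box, TCATGTG, is an extended E-box known from the promoters of melanin enzymes. Of the 23 listed targets with a RefSeq promoter window, 8 (34.8%) held these letters on either strand in any window, as did 4.31% of all genes with one (3.77% of windows). Among the 14 targets that rose and had a window, 7 held them. The list was made from known targets, and such motifs are part of how targets became known. The stretches around the M-box are shown for the melanin enzymes and the transporters and channels that rose, with the M-box or its reverse complement in capitals, 5′ to 3′ on the gene's strand.
Tyr, chr7:87493508-87493554, minus strand: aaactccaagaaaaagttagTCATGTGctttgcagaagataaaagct
Tyrp1, chr4:80834146-80834192, plus strand: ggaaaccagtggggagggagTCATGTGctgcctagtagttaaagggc
Trpm1, chr7:64153673-64153719, plus strand: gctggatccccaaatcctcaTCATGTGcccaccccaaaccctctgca
Slc24a5, chr2:125068094-125068140, plus strand: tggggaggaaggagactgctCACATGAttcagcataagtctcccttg
Dct, chr14:118052371-118052417, minus strand: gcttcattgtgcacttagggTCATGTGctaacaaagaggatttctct

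The M-box begins 22 bases before the start in Tyr, 47 in Tyrp1, 142 in Trpm1 and 151 in Dct, where the letters occur once more on the opposite strand, from 232 bases before the start. In Slc24a5 it lies on the opposite strand, from 13 bases before the start. Coordinates are those of GRCm38.p6, while the submitters' processing notes name mm9 for the counts. A match of letters is not evidence that the site was bound.

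Targets of SOX10 went both ways. Of 12 tested genes in a list of 18, 4 rose and 3 fell (4.66% and 5.26% of all tested genes). The list's median log2 fold change was 0.05. The rises were Mitf itself, Dct, Tyr and S100b, and the falls were the myelin gene Mbp, the connexin Gjc3 and the neuregulin receptor Erbb3. Mbp was at 129 ± 4.41 FPKM with rPPAA18C6@Dox and 162 ± 2.12 FPKM with PBS (log2 fold change -0.32, SE 0.0283, adjusted p = 0.000101 in limma), and Gjc3 at 25.5 ± 0.128 and 30.1 ± 0.612 FPKM (SD, n = 3 each). Dct and Tyr are also in the MITF list. The Erbb3 call was lost in all 6 leave-one-out fits (adjusted p up to 0.0855) and that of S100b in 4, which left out rPPAA18C6@Dox replicate 2, rPPAA18C6@Dox replicate 3, PBS replicate 1 and PBS replicate 2 (up to 0.126).

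Among targets of beta-catenin with LEF1 or TCF factors, 6 of a list of 14 were tested. Of these, 3 rose and 1 fell (4.66% and 5.26% of all tested genes). The list's median log2 fold change was 0.07, and it turned to -0.032 without PBS replicate 2 and to -0.035 where genes of any level were tested. The receptor Tnfrsf19 was at 11.7 ± 0.572 FPKM with rPPAA18C6@Dox and 8.55 ± 0.306 FPKM with PBS (SD, n = 3 each; log2 fold change 0.41, SE 0.0432). The adhesion receptor Cd44 rose by 0.18 (SE 0.0243) and the feedback inhibitor Axin2 by 0.20 (SE 0.0464). The Axin2 call failed in 4 leave-one-out fits, those lacking replicate 1 or 2 of either group (adjusted p up to 0.0788). The growth regulator Myc fell by 0.30 on the log2 scale (SE 0.0387). Beta-catenin itself, Ctnnb1, was at 590.4 ± 4.97 FPKM with rPPAA18C6@Dox and 586 ± 7.18 FPKM with PBS (log2 fold change 0.011, adjusted p = 0.791 in limma).

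Lysosome and autophagy genes known as targets of TFEB and TFE3 rose in 8 of 27 tested cases and fell in 1. Of all tested genes 4.66% rose and 5.26% fell. The list's median log2 fold change was 0.05. The protease Ctsb (0.22, SE 0.0235), Gpnmb (0.12), the galactosidase Gla (0.30, SE 0.0594) and the sialidase Neu1 (0.21, SE 0.0386) had the smallest p among the rises, and the sulfamidase Sgsh was the fall (-0.16, SE 0.0351). Gpnmb is also in the MITF list, and exons of Ctsb overlap those of Fdft1 on the other strand. Exons of Sgsh overlap those of Card14 on the other strand, a gene at a mean of 7.25 FPKM. Reads of this pair may be mixed if the counting ignored the strand. With 1 library left out 4 to 6 of the list were called, and those lost in at least 1 such fit were Gla, Atp6v0d1, Ctsd, Gaa, Fnip2 and Sgsh (adjusted p up to 0.113). The count was 4 without rPPAA18C6@Dox replicate 3, without PBS replicate 1 and without PBS replicate 3.

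The location of TFEB and TFE3 is set at the lysosome by folliculin, Rag GTPases, the Ragulator complex and mTOR. Of 24 tested genes of this control, 1 rose and 0 fell (4.66% and 5.26% of all tested genes). The list's median log2 fold change was 0.0030. In the same list voom also called 1. The rise was that of the folliculin partner Fnip2, at 5.12 ± 0.0445 FPKM with rPPAA18C6@Dox and 4.49 ± 0.00993 FPKM with PBS (SD, n = 3 each), and its call was lost in all 6 leave-one-out fits (adjusted p up to 0.0922). The Ragulator subunit Lamtor3 (0.09, adjusted p = 0.0647) came next. Mtor was at 12.1 ± 0.637 FPKM with rPPAA18C6@Dox and 12.2 ± 0.212 FPKM with PBS, and Flcn at 7.32 ± 0.0543 and 7.40 ± 0.266 FPKM. Levels of mRNA do not show where these proteins were in the cell.

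**Figure D5:**
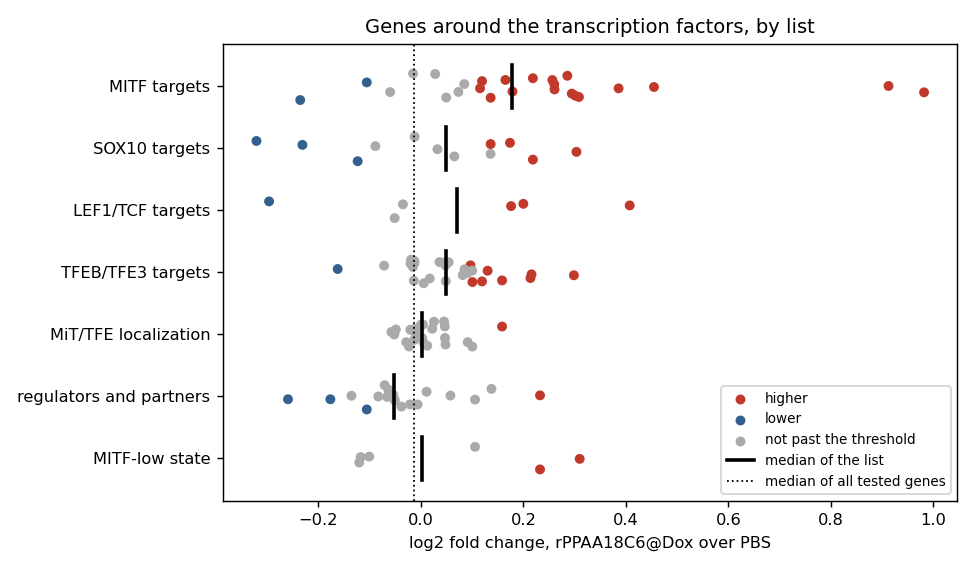
Log2 fold change of every tested gene in 7 lists around the members, rPPAA18C6@Dox over PBS. Red points rose, blue points fell, grey points did not pass the threshold, black bars are list medians and the dotted line is the median of all tested genes (-0.013). The MITF targets have the highest median, 0.18.

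Transcription factors and cofactors that act on or with the members had 19 tested genes of 30, with a median log2 fold change of -0.05. Of these, 1 rose and 3 fell (4.66% and 5.26% of all tested genes). Zeb2, a zinc finger factor of the neural crest and of differentiated melanocytes, was at 18.1 ± 0.418 FPKM with rPPAA18C6@Dox and 21.8 ± 0.755 FPKM with PBS (SD, n = 3 each; -0.26, SE 0.0344, adjusted p = 0.00162 in limma). The log2 fold change of Ets1, an ETS factor, was -0.18 (SE 0.0257), and Tbx2 fell as given above. Sox9, a SOX10 relative that melanoma cells with little MITF express, was at 2.69 ± 0.214 FPKM with rPPAA18C6@Dox and 2.14 ± 0.0762 FPKM with PBS. Its call (0.23, SE 0.0579) held in 1 of the 6 leave-one-out fits, the one lacking rPPAA18C6@Dox replicate 2, and reached an adjusted p of 0.0954 in the others. Creb1, whose product binds cAMP response elements, was at 10.1 ± 0.123 FPKM with rPPAA18C6@Dox and 10.2 ± 0.101 FPKM with PBS.

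Of 18 genes known to mark melanoma cells with little MITF, 6 were tested. Their median log2 fold change was 0.0023, and its sign turned in several alternatives. Among the 6, 2 rose and 0 fell (4.66% and 5.26% of all tested genes). The rises were Sox9 and the AP-1 subunit Jun, the latter at 18.8 ± 1.11 FPKM with rPPAA18C6@Dox and 15.0 ± 0.561 FPKM with PBS (SD, n = 3 each, log2 fold change 0.31, SE 0.0446). The receptor Axl was at 10.4 ± 0.543 FPKM with rPPAA18C6@Dox and 11.4 ± 0.584 FPKM with PBS (-0.12, adjusted p = 0.138 in limma).

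All 5 pigment cell markers had a row, and Tyrp1, Dct, Pmel, Mlana and Tyr summed to 6952 to 6992 FPKM with rPPAA18C6@Dox and 5922 to 6010 FPKM with PBS. The 10 most abundant genes by reads made up 6.25% to 6.28% of the 36594469 to 36740725 recovered reads per rPPAA18C6@Dox library, and 5.96% to 6.06% of the 36380462 to 37067116 per PBS library. Immune markers, of which 2 of 6 have a row, summed to 2.07 to 2.40 FPKM with rPPAA18C6@Dox and 1.92 to 2.26 FPKM with PBS. Fibroblast markers (4 of 5) summed to 3.17 to 3.61 and 3.71 to 3.86 FPKM, and endothelial markers (2 of 4) to 4.72 to 4.88 and 2.90 to 3.23 FPKM. None of the 4 keratinocyte markers has a row. Single markers passed the test, Vwf (0.79, SE 0.0635) and Cd68 (0.23, SE 0.0564), and the Cd68 call was lost in all 6 leave-one-out fits (adjusted p 0.0558 to 0.0952). Their part in the results was not tested. In bulk samples, fewer cells of a type and less RNA per cell cannot be told apart.

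In the authors' deposited table, which gives 1 p-value per gene with no test named, 7 of the 8 members had a p under 0.05, as did 17.5% of its genes. The authors' deposited table gave Mitf 3.15e-36, Pax3 0.000627, Tfeb 0.000733, Sox10 0.00276, Irf4 0.00756, Tfap2a 0.0374, Tfe3 0.0490 and Sox5 0.675. These p-values put Mitf first and Sox5 last among the members, as did the limma fit for the 7 it tested.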

How the data were processed

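The deposited table holds 1 value per gene and library and 1 p-value per gene, which are the authors' own. The values were read as FPKM, a unit that the deposited header does not name, because they stand in ratios of whole reads: 1 factor per gene turned the values of all 15726 genes into whole reads within 0.01. The genome build was mm9, per the submitters' processing notes, and libraries were stranded poly(A), per the labels' protocols. Aligner, counter and filters: not given in the sources used here. Columns named PBS matched the PBS titles. The 3 others, P with a number, were assigned to rPPAA18C6@Dox by elimination and number, and each direction reported depends on that assignment.

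FPKM values are not counts, so limma 3.58.1 (R 4.3.3) with a mean-variance trend was fitted on log2(FPKM + 1), unpaired and two-sided, with Benjamini-Hochberg adjustment over 10680 genes whose mean reached 1 FPKM in either group and a threshold of 0.05. The limma fit was also run on simulated reads with known changes, and the outcome is not reported here. Single values were tested with an exact permutation test (scipy 1.17.1). Alternatives were a pseudocount of 0.1, no filter, a mean of at least 5 FPKM, quantile normalization, no trend, voom on recovered reads, a replicate block and leaving out each library. Libraries of a group differed by more than counting noise (mean chi-square per gene 2.38 to 3.98, where noise gives 1), so each was counted separately. Depth was 36380462 to 37067116 recovered reads. GENCODE vM21 served only to find overlapping exons, and promoter sequences are RefSeq's for GRCm38.p6.

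The members and the gene lists were chosen with earlier results of these data known. Genes named were the members, the 2 genes of each list with the smallest p, any gene past the threshold that is counted singly, the marker genes, and the 3 genes most like Mitf and Sox10. List genes with no row, and the expression of members with no row, were not analysed here. Other genes named without passing the threshold (Mlph, Ctnnb1, Creb1, Mtor, Flcn, Axl, Sox6, Irf5 and Irf8) were chosen after their values were seen.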

Additional observations from a re-analysis of the deposited data

How the results depend on the processing

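The call and direction of Mitf held under every alternative run, with log2 fold changes of 0.29 to 0.32 with 1 library left out. The count of members called was 1 with all but 3 alternatives: 2 with quantile normalization (Pax3 added), 3 with voom (Pax3 and Tfeb added) and 4 with voom and no filter (Irf4 added), an alternative chosen after seeing the data. Over all tested genes 1060 were called, against 681 with no filter on low values, 1636 with voom and 600 to 749 with 1 library left out. The 39 distinct genes other than members called in the 7 lists around them became 28 to 30 with 1 library left out. In the same fits the count of calls was 2 to 3 for the regulators (4 with all libraries), 4 to 6 for the TFEB and TFE3 targets (9), 0 for MiT/TFE localization (1), 1 to 2 for the MITF-low genes (2), 1 to 2 for the SOX family (3), 5 to 6 for the SOX10 targets (7), 3 to 4 for the LEF1/TCF targets (4) and 16 to 17 for the MITF targets (19). The difference in the MiT/TFE sum was 9.65 to 10.9 FPKM with 1 library left out and turned to -0.758 FPKM without Mitf. The difference in the log2 ratio of Mitf to Sox10 was 0.24 to 0.27. The signs of Sox5 (-0.025 to 0.030) and of the endothelial marker Pecam1 (-0.077 to 0.027, and 0.0036 with quantile normalization) turned in leave-one-out fits, and so did the medians of the MITF-low, MiT/TFE localization and LEF1/TCF lists in at least 1. Replicate numbers are shared by label only. Deviations of same-numbered libraries correlated at -0.0024, 0.055 and -0.021 across genes, and not every library correlated best with its own number. With the replicate block 825 genes and 1 member were called, and the MiT/TFE sum and the ratio had an exact p of 0.25, the smallest 3 pairs allow. Depth limits Irf4, with 2 to 21 reads per library.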

Other observations

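Relatives of the members outside the melanocyte programme gave the following values. In the SOX family, 7 of 18 listed genes were tested, Sox10 and Sox5 among them. Of these, 1 rose and 2 fell (4.66% and 5.26% of all tested genes). Sox4, a SoxC factor of progenitor cells, was at 17.8 ± 0.357 FPKM with rPPAA18C6@Dox and 21.0 ± 0.792 FPKM with PBS (SD, n = 3 each; log2 fold change -0.22, SE 0.0346, adjusted p = 0.00411 in limma). Its relative Sox11 was at 14.4 ± 0.302 FPKM with rPPAA18C6@Dox and 16.2 ± 0.624 FPKM with PBS (-0.16, SE 0.0362), a call that failed in 4 leave-one-out fits, those lacking rPPAA18C6@Dox replicate 1, rPPAA18C6@Dox replicate 2, PBS replicate 2 and PBS replicate 3 (adjusted p up to 0.0784). Sox6, the SoxD relative of Sox5, was at 3.54 ± 0.173 FPKM with rPPAA18C6@Dox and 3.55 ± 0.0569 FPKM with PBS.

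In the interferon regulatory factor family, 3 of 9 listed genes were tested and 0 passed limma's threshold, with 1 at an unadjusted p under 0.05 and 0 called by voom with the same filter. That gene was Irf1, at 4.46 ± 0.266 FPKM with rPPAA18C6@Dox and 5.12 ± 0.186 FPKM with PBS (SD, n = 3 each; -0.17, adjusted p = 0.0616). Irf1 passed limma's threshold where tests covered genes with a mean of at least 5 FPKM (adjusted p = 0.0490), and over all alternatives its adjusted p was 0.0490 to 0.181. Irf9 was at 6.04 ± 0.251 FPKM with rPPAA18C6@Dox and 6.56 ± 0.414 FPKM with PBS, and it shares exon positions with Rnf31 on the same strand, so reads of the pair may be mixed. Irf4, Irf5 and Irf8 were each under 0.2 FPKM in every library.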
